A study of Mus musculus with 8 samples.

Results

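Cytosolic ribosomal protein genes code for the protein parts of the ribosome that works in the cytoplasm. They were chosen by name: protein-coding genes whose symbols begin with Rpl or Rps and a number, with the stalk genes Rplp0, Rplp1 and Rplp2 and with Rpsa, leaving out pseudogenes and kinases. The rule found 84 genes among the 52636 of the deposited table, with 32 of the small subunit, 49 of the large subunit and 3 of the stalk. They lay on 19 chromosomes, and all 84 were among the 18321 genes with enough reads to be tested. The name pattern also caught 6 pseudogenes and 1 kinase-like gene, which were left out. The rule itself uses no measured value, but the set was chosen with earlier results of these data known.

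Each ribosome holds a set of ribosomal proteins around its ribosomal RNA. The small subunit reads the messenger RNA, the large subunit joins the amino acids, and the stalk of the large subunit recruits the factors that drive each step. Cells make these proteins in matched amounts, and surplus copies are degraded. Their messenger RNAs are short, abundant and long-lived, and most begin with a run of C and T bases, the 5′ terminal oligopyrimidine tract or TOP motif, through which mTOR and the RNA-binding protein Larp1 set their translation and stability. ERK, the last kinase of the MAPK pathway, acts on ribosome production through its targets, among them Myc, the Rsk kinases that phosphorylate Rps6, and the RNA polymerase that transcribes ribosomal RNA. The early post-implantation epiblast, the tissue that forms the body of the embryo, divides fast and makes ribosomes at a high rate.

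RNA was sequenced from mouse epiblasts at embryonic day 5.5, in 8 libraries that formed 4 groups of 2: 4OHT and vehicle, each in clone 4 and clone 8. All groups carried the genotype Sox2Cre;CRAFR26, in which Cre acts in the epiblast and the transgene holds an inducible cRAF, the kinase upstream of MEK and ERK. The 4OHT groups were cultured for 4 h with 250 nM 4-hydroxytamoxifen (4OHT), which switches the transgene on, and the vehicle groups for 4 h with ethanol. The vehicle libraries are also labelled 0 h, and if they were taken without culture, the 4OHT groups differ from them by 4 h in culture as well. No group received 4OHT without the transgene, so effects of the drug and of ERK cannot be told apart. Each library came from a pool of 10 epiblasts freed by hand from the layers around them, and the labels do not say whether the 2 pools of a group came from separate litters. The p-values therefore measure the spread between these pools.

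Vehicle libraries held 33.3 to 38.0 M counts (M, mega) and 4OHT libraries 56.4 to 72.5 M. Egr1, an immediate early target of ERK, stood at 5.77 to 18.2 counts per 1 M of the scaled library (CPM) in the vehicle libraries and at 55.4 to 379 CPM in the 4OHT libraries. The 10 epiblast markers summed to 5952 to 6436 CPM with vehicle and 5216 to 5677 CPM with 4OHT in clone 4, and to 5963 to 6158 CPM and 5064 to 5244 CPM in clone 8, lower with 4OHT without overlap in both, and none was at 0. In clone 8 edgeR's test called Sox2 (log2 fold change -0.79), Pou3f1 (-0.67), Pou5f1 (-0.62) and Utf1 (-0.44) of them lower. Of all tested genes, 8.6% were called lower and 8% higher. The other epiblast markers, from Nanog at -0.71 to Tdgf1 at 0.11, were not called, and Dnmt3b, the most abundant, changed by -0.09. The sum of the 11 visceral endoderm markers was higher with 4OHT in clone 4 and lower in clone 8. It was 508 to 812 CPM with vehicle and 2402 to 2746 CPM with 4OHT in clone 4. In clone 8 it was 1652 to 1711 CPM with vehicle and 439 to 1170 CPM with 4OHT. There edgeR's test called Ttr (-1.97), Hnf4a (-1.80), Apoa1 (-1.56), Rbp4 (-1.48) and Amn (-1.25) lower. The others were not called, among them Dab2 (-0.16), Sox17 (-0.05) and Gata4 (0.05), whose groups overlapped. The 8 extraembryonic ectoderm markers summed to 411 to 678 CPM with vehicle and 553 to 577 CPM with 4OHT in clone 4, and to 140 to 179 CPM and 527 to 655 CPM in clone 8. In clone 8 edgeR's test called all of them but Ascl2 (0.24) higher, by log2 fold changes of 1.62 (Bmp4) to 2.47 (Wnt7b). None of these 19 markers was at 0. The 3 parietal endoderm markers summed to 24.5 to 125 CPM, and the 6 decidua and blood markers to 5.5 to 10.1 CPM with up to 4 of them at 0. The part of the share of epiblast and other cell types in the results below was not tested. The vehicle clone 8 replicate 1 library stood apart in the level of ribosomal protein genes. The members' medians within clone 8 and between the vehicle groups are given with and without it. The calls of single genes and of other lists within clone 8 also depend on this library and are given only with it.

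Runs of C and T bases like the tract that gives TOP messenger RNAs their name lay near the annotated starts of most members looked up. Searched on the transcribed strand from 20 bases before to 50 bases after the start annotated by RefSeq (GRCm38.p6), a C followed by at least 5 further C or T bases was present in 54 of the 64 members that have an entry, or 84.4%, against 47.8% of 12295 tested genes outside the set and 48.5% of all 27025 genes with an entry. On the other strand the same search found it in 29.7% of the members and 54.1% of the tested genes outside the set. The tracts of 5 genes that carry the results below are shown with the windows of 2 members in which the search found none, each as 30 bases from 5′ to 3′ with the tract in capitals:
Rps27: tttcgCTCCTTTCCggcggtgacgacctcc
Rps12: gccggCCTTTTCCCCTgccgccgccgactt
Rpl34: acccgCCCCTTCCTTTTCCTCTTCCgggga
Rplp2: agcgtCTTCCTTTCgccgccggacgccgcc
Rps27l: ctccaCTCCTCCCCgccgcctctatcccgg
Rplp0: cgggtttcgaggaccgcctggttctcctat
Rpl7l1: gctgcgcaagcgcagtagctgaagcaccgg
In this build they lie at chr3:90213626-90213655 (minus strand), chr10:23787177-23787206 (minus), chr3:130730330-130730359 (minus), chr7:141447642-141447671 (plus), chr9:66946069-66946098 (plus), chr5:115559457-115559486 (plus) and chr17:46782637-46782666 (minus). The windows of Rplp0 and Rpl7l1 run from 10 bases before the annotated start to 20 bases from it. The tracts shown began before the annotated start by 2 bases in Rps27, 17 in Rpl34, 4 in Rplp2 and 12 in Rps27l. That of Rps12 began at base 9 after it. The Rps27l tract, of 9 bases, ended before the annotated start. A match describes these letters near the start and not a working motif. The 10 members without a match included Rplp0, Rps3, Rps16 and Rps28 as well as the paralogs Rpl7l1 and Rpl10l.

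Ribosomal protein messenger RNA took a smaller share of the library with 4OHT than with vehicle in both clones. In clone 8 the 84 genes held 10.6% and 8.60% of all counts in the vehicle libraries and 6.27% and 6.42% in the 4OHT libraries. In clone 4 they held 7.04% and 7.49% with vehicle and 6.04% and 5.39% with 4OHT. The 95% Wilson intervals, which cover counting error only, were far narrower than these gaps, for example 10.54% to 10.56% for the highest library. All 4 of the 4OHT libraries lay below all 4 vehicle libraries, and the clone 8 vehicle libraries were the highest. Small-subunit genes made up 42.63% and 42.04% of the ribosomal protein counts in the clone 8 vehicle libraries and 40.9% and 40.6% in its 4OHT libraries, a lower proportion without overlap. In clone 4 they made up 41.2% and 41.2% with vehicle and 41.0% and 41.2% with 4OHT. In pooled tissue a smaller share of cells with high levels and a lower level in each cell cannot be told apart.

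**Figure D1:**
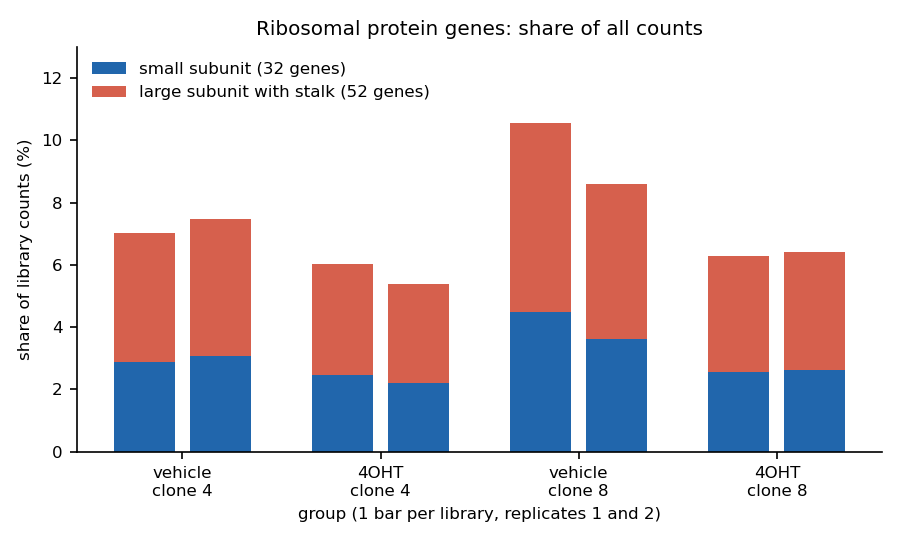
Share of all library counts (%, vertical axis) that fell on the 84 ribosomal protein genes, with 1 bar per library, grouped by clone and treatment, and split into the small subunit and the large subunit with its stalk. The 4OHT bars reach 5.39% to 6.42% and the vehicle bars 7.04% to 10.6%, with the small subunit at 40.6% to 42.6% of each bar.

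The levels of single members spanned a wide range. Per kilobase of annotated transcript, the mean over the 4 vehicle libraries was highest for Rps14 at 3429 ± 937 CPM per kb (SD, n = 4), Rplp0 at 3158 ± 630 and Rpl13 at 3096 ± 596. The order of these 3 was not tested: the SDs take in both clones, and the genes share their libraries. Of the 84 genes, 59 lay within 2-fold of the median of 1172 CPM per kb. The lowest were Rpl39l at 22.8 ± 11.6, Rpl10l at 18.7 ± 2.29, Rpl36al at 5.77 ± 1.08, Rpl24 at 0.964 ± 0.398 and Rpl3l at 0.413 ± 0.183 CPM per kb, of which all but Rpl24 are paralogs of another member. Rpl24 is a core protein of the large subunit, and its low value is uncertain: another annotated transcript on the same strand, Gm28037, covers 47.0% of its exon bases, and how the counting treated shared bases is not given in the sources used here.

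In clone 8 the messenger RNA of nearly the whole set was lower with 4OHT than with vehicle. With edgeR's quasi-likelihood test and Benjamini-Hochberg adjustment over all 18321 genes, 73 of the 84 genes were called lower and 0 higher at an adjusted p under 0.05, against 8.6% of all tested genes called lower and 8% called higher. At an unadjusted p under 0.05 there was 1 member higher, and DESeq2 called that member, Rpl24, higher. The median log2 fold change was -0.78, a fall of 41.7%, where the median of all tested genes was 0.07, and 83 of the 84 estimates were negative. For 77 of the 84 genes both 4OHT libraries lay below both vehicle libraries, which held for 28.3% of tested genes. The small subunit (30 of 32 called lower, median -0.85), the large subunit (40 of 49, median -0.74) and the stalk (3 of 3, median -0.94) all took part. The calls rest on the vehicle clone 8 replicate 1 library: without it the median was -0.62 and 82 of 84 estimates were negative, but 0 members, and 0 genes of any kind, were called.

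**Figure D2:**
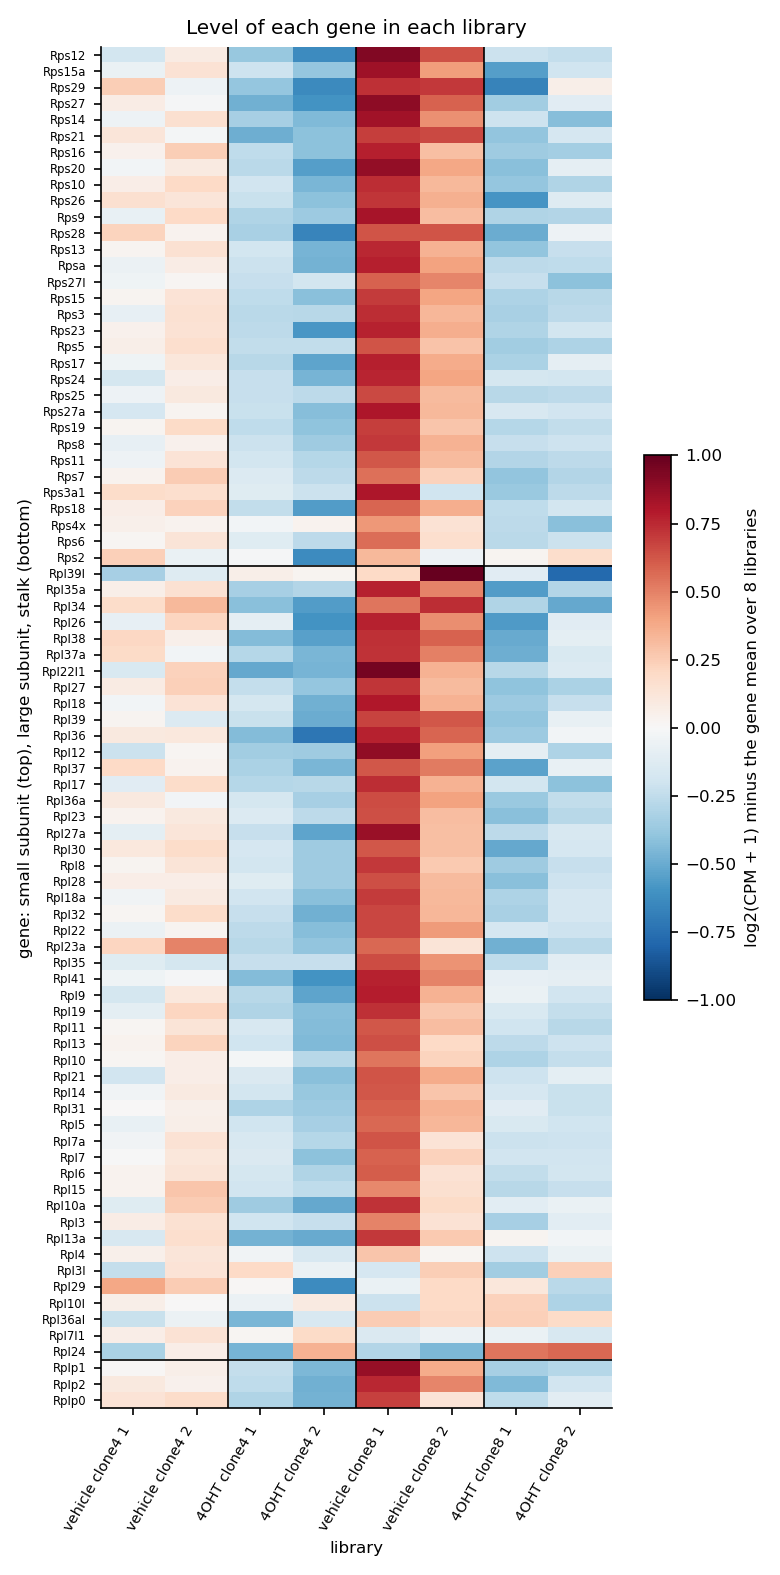
Level of each of the 84 genes (rows, in the order small subunit, large subunit, stalk) in each of the 8 libraries (columns), as log2(CPM + 1) minus the mean of that gene over the libraries; red is above the mean and blue below. The clone 8 vehicle columns, replicate 1 above all, are red over most rows and the 4OHT columns of both clones are blue, while rows such as Rpl7l1 and Rpl10l show no such pattern.

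Among the 32 small-subunit genes the estimates in clone 8 ran from -1.02 to -0.04. Rps12, a small acidic protein of the subunit's beak, read 660.2 and 539 CPM with vehicle and 298 and 294 CPM with 4OHT in clone 8, a log2 change of -1.02 (SE 0.14, adjusted p = 0.0085). Rps27, a zinc finger protein, stood at 1057 and 852 CPM with vehicle and 445 and 523 CPM with 4OHT, a change of -0.98 (SE 0.13, adjusted p = 0.00783). Rps14, a protein of the subunit's platform, read 3117 and 2393 CPM with vehicle and 1509.8 and 1298 CPM with 4OHT and changed by -0.97 (SE 0.14, adjusted p = 0.0088). In each of these 3 genes the lower vehicle library was above the higher 4OHT library by more than the gap between the replicates of either group. Rps3, at the entry of the messenger RNA channel, went from 2971 and 2236 CPM with vehicle to 1421 and 1481 CPM with 4OHT and changed by -0.84 (SE 0.14, adjusted p = 0.0101). Rpsa, known also as a laminin receptor precursor, read 1604 and 1236 CPM with vehicle and 779 and 785 CPM with 4OHT and changed by -0.86 (SE 0.14, adjusted p = 0.0101). Rps19, which is mutated in Diamond-Blackfan anaemia, had 2049 and 1539.8 CPM with vehicle and 1042 and 1073 CPM with 4OHT and changed by -0.76 (SE 0.14, adjusted p = 0.0121). For these 3 genes too the groups did not overlap, and the replicate 1 vehicle library was the highest. Rps6, the classic substrate of the S6 and Rsk kinases, stood at 1579 and 1202 CPM with vehicle and 889 and 924 CPM with 4OHT, a change of -0.62 (SE 0.13, adjusted p = 0.0184). Rps28, among the smallest of these proteins, stood at 293 and 293 CPM with vehicle and 134 and 182 CPM with 4OHT and changed by -0.89 (SE 0.17, adjusted p = 0.0129).

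Among large-subunit genes called lower in clone 8 the changes were largest for Rpl39l, Rpl35a and Rpl34. Rpl35a, another gene of Diamond-Blackfan anaemia, read 884 and 732 CPM with vehicle and 351 and 422 CPM with 4OHT in clone 8, a log2 change of -1.06 (SE 0.13, adjusted p = 0.00699). Rpl34 read 587 and 675 CPM with vehicle and 328 and 283 CPM with 4OHT and changed by -1.05 (SE 0.12, adjusted p = 0.00699), and here replicate 2 was the higher vehicle library. Rpl38, known for its effect on the translation of Hox messages, read 441 and 400.1 CPM with vehicle and 187 and 248 CPM with 4OHT and changed by -0.95 (SE 0.14, adjusted p = 0.00917). The groups did not overlap in any of these 3 genes. Rpl5 and Rpl11, which with the 5S ribosomal RNA form the particle that can bind Mdm2 and raise p53, fell together. Rpl5 had 1674 and 1413 CPM with vehicle and 1008 and 976 CPM with 4OHT and changed by -0.64 (SE 0.11, adjusted p = 0.0113). Rpl11 had 1434 and 1156 CPM with vehicle and 815 and 772 CPM with 4OHT and changed by -0.71 (SE 0.13, adjusted p = 0.0129). Rpl23a and Rpl35, which surround the exit of the peptide tunnel, both had a log2 fold change of -0.74, with adjusted p of 0.0206 and 0.00883. Genes on the opposite strand, Tlcd1 and Wdr38, cover 59.7% and 66.2% of their exon bases, and whether the counting used strand is not given in the sources used here. Rpl36 (log2 fold change -0.87), Rpl12 (-0.87), Rpl39 (-0.88) and Rpl10 (-0.66) were called lower as well.

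The stalk genes Rplp0, Rplp1 and Rplp2 code for the proteins that draw elongation factors to the ribosome. Rplp1 stood at 1256 and 889 CPM with vehicle and 545 and 563 CPM with 4OHT in clone 8, a log2 change of -0.95 (SE 0.16, adjusted p = 0.0101). Rplp2 stood at 1469 and 1224 CPM with vehicle and 641 and 762 CPM with 4OHT and changed by -0.94 (SE 0.13, adjusted p = 0.0085). Rplp0, the base that holds the other two and the most abundant member by counts in the vehicle libraries, read 5569 and 3811 CPM with vehicle and 2911 and 3223 CPM with 4OHT and changed by -0.61 (SE 0.16, adjusted p = 0.0322). The replicates differed most for Rplp0, whose vehicle replicate 1 exceeded every other library.

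The 11 genes that were not called in clone 8 fell into 3 kinds. The first was made of weakly or separately expressed paralogs, Rpl7l1, Rpl10l, Rpl36al and Rpl3l, with log2 fold changes between -0.22 and -0.01. The second was Rpl24, at 0.585 and 0.422 CPM with vehicle and 1.81 and 1.9 CPM with 4OHT in clone 8, a change of 1.88 (SE 0.65, adjusted p = 0.0772) on few reads and with the doubt on its counting given above. The third was made of core genes, which but for Rpl10a are named here because of their values. All but Rpl13a, at 103 CPM per kb over the vehicle libraries, were abundant. Rps2, at the mouth of the messenger RNA channel, read 2032 and 1565 CPM with vehicle and 1657 and 1833 CPM with 4OHT in clone 8, a change of -0.04 (SE 0.20, adjusted p = 0.9), with overlapping groups. Rpl29 read 413 and 498 CPM with vehicle and 467 and 359 CPM with 4OHT, a change of -0.14 (SE 0.21, adjusted p = 0.68), again with overlap. Rpl4, whose long arm lines the peptide tunnel, read 4311 and 3606 CPM with vehicle and 3078 and 3381 CPM with 4OHT, a change of -0.29 (SE 0.11, adjusted p = 0.0967), and its groups did not overlap although the test was missed. Rpl10a (log2 fold change -0.57, adjusted p = 0.0583), Rpl13a (-0.50, 0.0696) and Rps3a1 (-0.71, 0.0836) also stayed above the threshold, with no overlap of the groups. Another gene on the same strand, Gm45713, covers 29.4% of the exon bases of Rpl13a. An adjusted p above the threshold does not show that these genes held their level.

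**Figure D3:**
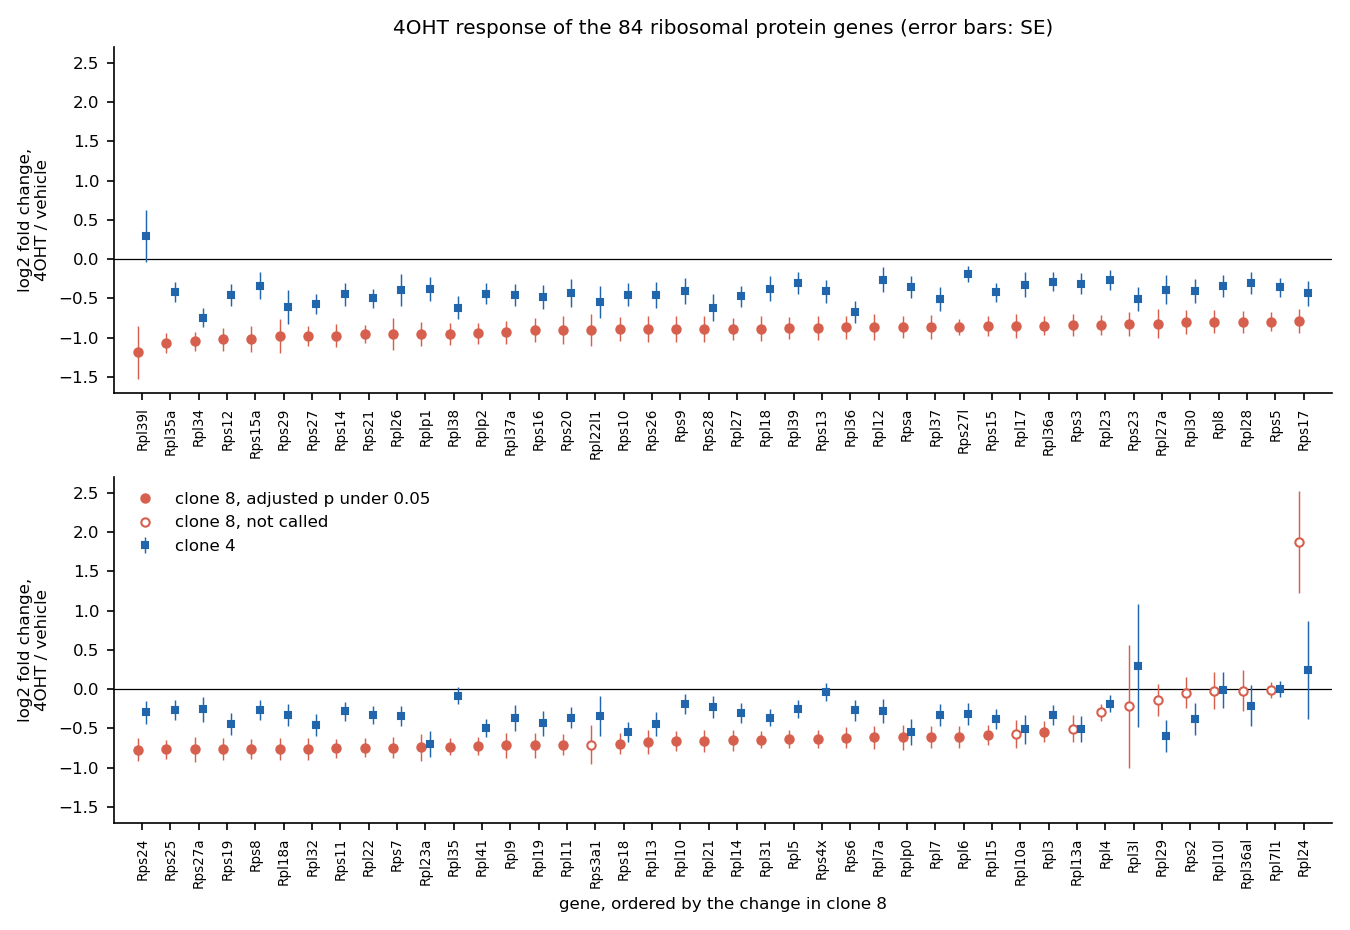
Log2 fold change of 4OHT over vehicle (vertical axis, with SE bars) for each of the 84 genes, ordered by the change in clone 8, with clone 8 as circles (filled where the adjusted p was under 0.05) and clone 4 as squares. Clone 8 lies near -0.78 and clone 4 near -0.37 for most genes, and the open circles are the 11 genes not called in clone 8, of which Rps3a1 and Rpl10a lie among the called genes and the others at the right.

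Clone 4 had lower estimates for nearly all of the same genes, but no call. In edgeR's quasi-likelihood test 0 of 84 genes were called in either direction, against 0% of all tested genes called lower and 0.0382% called higher. At an unadjusted p under 0.05, 55 members were lower and 0 higher, and DESeq2 called 9 lower. The median log2 fold change was -0.37, a fall of 22.8%, against 0.00 over all tested genes, and 80 of 84 estimates were negative. Both 4OHT libraries lay below both vehicle libraries for 76 of the 84 genes, which held for 23.8% of tested genes.

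Rpl34 had the lowest estimate in clone 4, with 459 and 507 CPM with vehicle and 303 and 274 CPM with 4OHT in clone 4, a log2 change of -0.74 (SE 0.12, adjusted p = 0.0658). Rpl23a followed with 204 and 248 CPM with vehicle and 145 and 133 CPM with 4OHT, a change of -0.70 (SE 0.17, adjusted p = 0.17), and Rpl36 with 555 and 558 CPM with vehicle and 384 and 314 CPM with 4OHT, a change of -0.67 (SE 0.14, adjusted p = 0.12). These 3 have short annotated transcripts, of 383 to 560 bases, and the 4OHT libraries were the lower ones in each. Rpl38 read 305 and 274 CPM with vehicle and 196 and 181 CPM with 4OHT, a change of -0.62 (SE 0.14, adjusted p = 0.17). Rps28 read 221 and 193 CPM with vehicle and 151 and 119 CPM with 4OHT, a change of -0.62 (SE 0.17, adjusted p = 0.22). Rplp0 read 3830.1 and 3946 CPM with vehicle and 2825 and 2501 CPM with 4OHT, a change of -0.55 (SE 0.16, adjusted p = 0.27). In all 3 the groups were again apart, although no adjusted p reached the threshold. Rps6 read 1087 and 1172 CPM with vehicle and 983 and 892 CPM with 4OHT, a change of -0.27 (SE 0.13, adjusted p = 0.57). Rps2, which overlapped in clone 8, overlapped here as well, at 1916 and 1549 CPM with vehicle and 1610.2 and 1053 CPM with 4OHT and a change of -0.38 (SE 0.20, adjusted p = 0.6). Estimates near 0 included those of Rpl7l1 at 0.00, Rpl10l at -0.01 and Rpl35 at -0.08. Rpl24 (0.25), Rpl39l (0.29) and Rpl3l (0.30) had estimates above 0, none of which passed the test.

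With both clones in 1 additive fit, 0 members were called in edgeR's quasi-likelihood test, where 0% of all tested genes were called lower and 0.00546% higher. The median log2 fold change was -0.57, and 77 members were lower at an unadjusted p under 0.05. DESeq2 called 71 of them lower, and the mean of the within-clone contrasts, taken in the fit of the 4 groups, called 74. For 64 of the 84 genes all 4 4OHT libraries lay below all 4 vehicle libraries, which held for 5.58% of tested genes. The direction was therefore shared by the clones for most members, while the call depended on how the spread was estimated. Among the lowest estimates were Rpl34 at -0.89 (SE 0.11, adjusted p = 0.0626), Rpl38 at -0.79 (SE 0.12, adjusted p = 0.11) and Rps27 at -0.78 (SE 0.12, adjusted p = 0.11).

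The responses of the clones were compared through the interaction term. The median difference, clone 8 minus clone 4, was -0.41, and 79 of 84 estimates were negative. It was 0.05 over all tested genes and -0.55 over the 189 other short, abundant genes described below. In edgeR's quasi-likelihood test 1 member passed, Rps27l, against 1.75% of all tested genes called lower and 1.08% called higher. Rps27l is a near copy of Rps27 that p53 induces. It read 841 and 782 CPM with vehicle and 474 and 420.2 CPM with 4OHT in clone 8, against 539.7 and 565 CPM with vehicle and 475 and 492 CPM with 4OHT in clone 4. The vehicle levels differed between the clones and the 4OHT levels were alike. The change was -0.86 (SE 0.10, adjusted p = 0.00699) in clone 8 and -0.19 (SE 0.10, adjusted p = 0.6) in clone 4, and the difference was -0.67 (SE 0.14, adjusted p = 0.0484). Leaving out 1 library at a time moved that adjusted p to between 0.03 and 0.17. At an unadjusted p under 0.05, 30 members differed in the same direction, and DESeq2 called 5. In this fit Rps27l was the only member whose fall differed between the clones past the threshold.

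Between the vehicle groups, most members had higher estimates in clone 8 than in clone 4. In vehicle, 25 of the 84 genes were called higher in clone 8 than in clone 4 and 0 lower in edgeR's quasi-likelihood test, against 4.06% and 4.31% of all tested genes. No member was lower at an unadjusted p under 0.05, and DESeq2 called none lower. The median log2 difference was 0.47 and 80 of 84 estimates were positive; for 68 genes both clone 8 vehicle libraries lay above both of clone 4, which held for 29.7% of tested genes. Rps12 showed the largest called difference, with 660.2 and 539 CPM in clone 8 and 306 and 367 CPM in clone 4, or 0.83 (SE 0.14, adjusted p = 0.0209). Rpl12, a protein of the stalk base, had 651 and 466 CPM against 302 and 356 CPM, or 0.76 (SE 0.16, adjusted p = 0.0297). Rps27 (0.72), Rpl39 (0.70) and Rpl35 (0.70) were called higher as well. In all these genes the clone 8 libraries were the higher ones without overlap. The calls again rest on few libraries: 0 remained without the vehicle clone 8 replicate 1 library, and likewise 0 without either vehicle library of clone 4, with medians of 0.30 to 0.63 over the libraries left out in turn. The 4OHT response in clone 8 shares its vehicle libraries with this comparison.

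Paralogs showed which copies carried the counts. Rps27l held 44.3% to 56.7% of the counts of its pair with Rps27 over the 8 libraries, and 35.5% to 47.5% of the pair per length of annotated transcript. Rpl22l1, a paralog of Rpl22, held 23.7% to 31.2% of the counts of that pair but 53.5% to 62.7% of it per length, and both fell in clone 8, Rpl22l1 by -0.90 (SE 0.20, adjusted p = 0.0206) and Rpl22 by -0.74 (SE 0.12, adjusted p = 0.00929). Rpl7l1 was not called in clone 8 where Rpl7 was. It stood at 379 and 404 CPM with vehicle and 402 and 376 CPM with 4OHT in clone 8, a log2 change of -0.01 (SE 0.10, adjusted p = 0.96), while Rpl7 read 1816 and 1418 CPM with vehicle and 1059 and 1059 CPM with 4OHT, a change of -0.61 (SE 0.14, adjusted p = 0.0203). In clone 4 Rpl7l1 read 441 and 466 CPM with vehicle and 427 and 480.2 CPM with 4OHT, so that its 8 values spanned only 376 to 480 CPM. Its share of the pair's counts went from 17.3% and 22.2% in the clone 8 vehicle libraries to 26.2% and 27.5% with 4OHT. Rpl39l, a paralog best known from the testis, read 14.2 and 26.9 CPM with vehicle and 11.3 and 6.72 CPM with 4OHT in clone 8, a change of -1.19 (SE 0.33, adjusted p = 0.0405), and held 3.10% to 7.41% of the counts of the pair with Rpl39. Its vehicle libraries differed from each other by more than the lower of them differed from either 4OHT library. Rpl10l, Rpl36al and Rpl3l, of which the first is a testis gene and the last a muscle gene, held at most 1.78% of the counts of their pairs. Where the parent and a copy share sequence, the counting could split reads between them.

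Transcript length moved with the response. The members are short, with a median annotated transcript of 803.5 bases and 58 of 84 under 1000 bases. Among the 78 members with a mean above 100 CPM, those under 600 bases had a median log2 fold change of -0.92 in clone 8 (22 genes) and the others -0.76 (56 genes); in clone 4 the medians were -0.47 and -0.34. Spearman's rho of the response with length was 0.45 in clone 8 and 0.55 in clone 4 over these 78 genes, which share their libraries. Short transcripts outside the set fell too in clone 8. The class of 189 protein-coding genes under 1000 bases and above 100 CPM was chosen after the data were seen. Of these, 160 were called lower and 4 higher, against 8.6% and 8% of all tested genes, with a median of -0.69. In clone 4 the same class had a median of -0.12, against -0.37 for the ribosomal protein genes. In the interaction its median was -0.55, against -0.41 for the members. There 19 of the 189 were called lower and 0 higher, against 1.75% and 1.08% of all tested genes. At an unadjusted p under 0.05, 3 of the class were higher in the interaction. In vehicle, 59 of the 189 were called higher in clone 8 and 1 lower, against 4.06% and 4.31% of all tested genes. Their median was 0.38, against 0.47 for the members. With offsets fitted per library to length and GC content, 52 members were called lower in clone 8 with a median of -0.57, against 93 of the 189 with a median of -0.45. In clone 4 the offsets left the members' median at -0.35 and that of the short class at -0.09, and between the vehicle groups they left 3 calls and a median of 0.20. What part RNA quality or library preparation had in the trend with length was not tested.

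**Figure D4:**
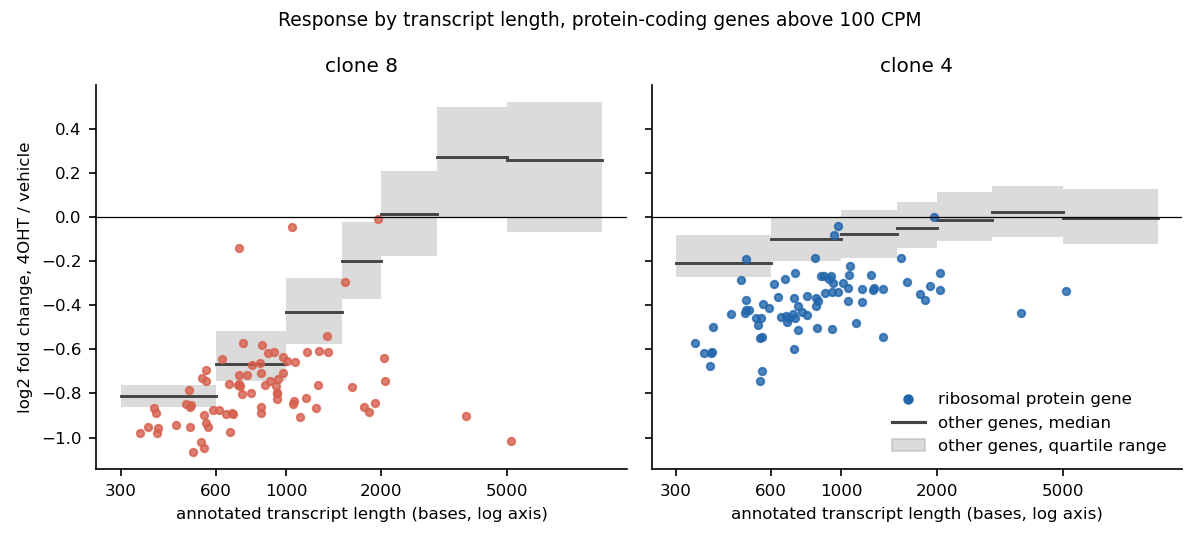
Log2 fold change of 4OHT over vehicle (vertical axis) against annotated transcript length (horizontal log axis, bases) for the 78 ribosomal protein genes above 100 CPM (points) and for the other protein-coding genes above 100 CPM, shown per length class as the median (line) and the range between the quartiles (grey). In both clones most points under 1000 bases lie below the grey classes. In clone 8 the medians under 600 bases and from 600 to 1000 bases are -0.92 and -0.76 for the points and -0.81 and -0.66 for the other genes. In clone 4 they are -0.47 and -0.37 for the points and -0.21 and -0.10 for the other genes.

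Longer members, like the short ones, had lower medians than other genes of their length. In clone 8 the 13 members of 1000 to 1500 bases had a median of -0.66 against -0.43 for 266 other genes of that length above 100 CPM. The 6 members of 1500 to 2000 bases, among them Rpsa, Rps3, Rpl4 and Rpl7l1, had -0.81 against -0.20 for 361 others. In clone 4 the medians of these classes were -0.33 against -0.08 and -0.30 against -0.05. The length classes were drawn after the data were seen, lengths are those of annotated transcripts, and no test was made of these medians.

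Other genes of the translation machinery were compared from lists. Among ribosomal proteins that the name pattern misses, Fau, whose product releases Rps30, read 1087 and 899 CPM with vehicle and 563 and 536 CPM with 4OHT in clone 8, a change of -0.85 (SE 0.11, adjusted p = 0.00782), and Rack1, a signalling scaffold on the small subunit, changed by -0.67 (SE 0.14, adjusted p = 0.0167). Both fell without overlap of the groups. Of 18 translation factors and other genes with known or presumed TOP leaders, 8 were called lower in clone 8 and 0 higher, against 8.6% and 8% of all tested genes, with a median of -0.45. The elongation factor subunits Eef1b2 (-0.94 (SE 0.15, adjusted p = 0.00975)), Eef1d (-0.56 (SE 0.11, adjusted p = 0.0154)) and Eef2 (-0.44 (SE 0.12, adjusted p = 0.0339)) and the abundant growth protein Tpt1 (-0.71 (SE 0.13, adjusted p = 0.0126)) were among them. Eef1a1 (-0.48 (SE 0.18, adjusted p = 0.11)) missed the threshold. Hnrnpa1 (-0.08) and Pabpc1 (0.21) did as well.

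In the reported fit, genes that build ribosomes were called about as often as other genes in clone 8. Of 40 assembly factors, 4 were called higher and 3 lower in clone 8, with a median of 0.04, near the 8% and 8.6% of all tested genes. Utp20, which processes the small-subunit RNA, read 71.9 and 83.7 CPM with vehicle and 126 and 151 CPM with 4OHT in clone 8, a change of 0.83 (SE 0.13, adjusted p = 0.00975). Tsr1 (0.80 (SE 0.18, adjusted p = 0.0201)), Rrp12 (0.68 (SE 0.15, adjusted p = 0.0189)) and Heatr1 (0.62 (SE 0.16, adjusted p = 0.0313)) were higher as well. Npm1, the main protein of the nucleolus, read 5862 and 4828 CPM with vehicle and 3732 and 3639 CPM with 4OHT and changed by -0.54 (SE 0.11, adjusted p = 0.0153). Nop10 (-0.75) and Nhp2 (-0.74), small proteins of the particles that modify ribosomal RNA, fell with it. With the length and GC offsets Heatr1 was no longer called, while 3 other assembly factors were called higher and 5 others lower. Of all tested genes, 4.19% were then called higher and 6.72% lower. Of 11 RNA polymerase I genes, Polr1a, the largest subunit, rose by 0.83 (SE 0.15, adjusted p = 0.0122) and Taf1d, part of its promoter factor, by 0.54 (SE 0.14, adjusted p = 0.0317), while Polr1c (-0.50) and Polr1d (-0.45), shared with polymerase III, fell. Of 8 hosts of small nucleolar RNAs 0 were called in clone 8 in edgeR's quasi-likelihood test, with a median of -0.08; at an unadjusted p under 0.05, 1 was higher and 2 lower, and DESeq2 called 1 lower. In vehicle, 6 of the 40 assembly factors were called lower in clone 8 than in clone 4 and 0 higher. Of all tested genes, 4.31% were called lower and 4.06% higher in that comparison. At an unadjusted p under 0.05, 2 of the 40 were higher, and DESeq2 called 0 higher.

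Among 23 regulators of ribosome production and translation, 5 were called higher and 3 lower in clone 8, with a median of 0.33, where 8% of all tested genes were called higher and 8.6% lower. Myc, which drives transcription of ribosome genes, read 123 and 133 CPM with vehicle and 209 and 265 CPM with 4OHT in clone 8, a change of 0.88 (SE 0.17, adjusted p = 0.0134), and in clone 4 235 and 186 CPM with vehicle and 214 and 271 CPM with 4OHT, a change of 0.20 (SE 0.17, adjusted p = 0.78). Mtor (0.50), its inhibitors Tsc1 (0.83) and Tsc2 (0.63), and the Rsk gene Rps6ka6 (0.69) rose. Larp1, which binds TOP messages, fell from 185 and 155 CPM with vehicle to 125 and 103 CPM with 4OHT, a change of -0.58 (SE 0.14, adjusted p = 0.0261). Eif4ebp2 (-0.81 (SE 0.15, adjusted p = 0.0129)), a brake on cap-dependent translation, and Mknk2 (-0.95 (SE 0.28, adjusted p = 0.0487)), a kinase of the cap-binding protein, fell too. In clone 4, 0 of the 102 genes of these 6 lists were called in edgeR's quasi-likelihood test, with 1 higher and 11 lower at an unadjusted p under 0.05, and DESeq2 called 1 higher. In the interaction, Utp20 (1.02 (SE 0.19, adjusted p = 0.0357)), Polr1a (1.04 (SE 0.21, adjusted p = 0.0448)), Taf1d (0.92 (SE 0.20, adjusted p = 0.0487)) and Rps6ka6 (0.87 (SE 0.18, adjusted p = 0.0462)) were called higher in clone 8. Length moved with these calls too: the 11 listed genes called higher had a median transcript of 5738.5 bases and the 18 called lower 1380.5 bases. With the length and GC offsets 6 and 11 of them stayed called. Of the 73 listed genes not called, 3 were then called higher and 5 lower.

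**Figure D5:**
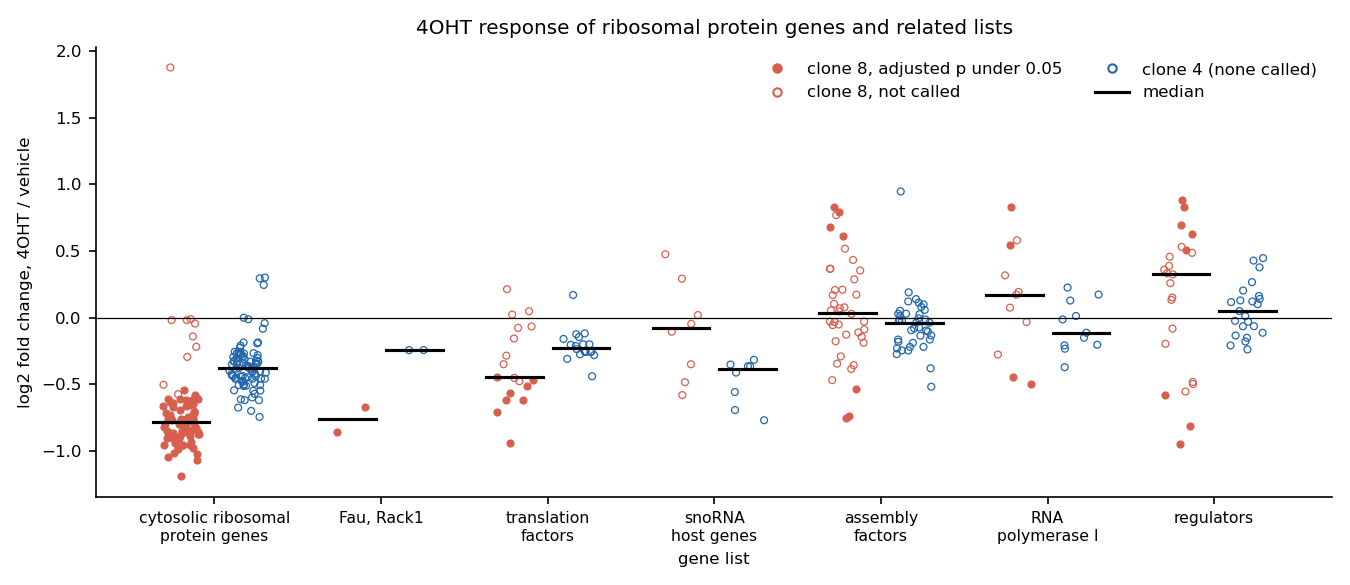
Log2 fold change of 4OHT over vehicle (vertical axis) for each gene of 7 lists (horizontal axis), with clone 8 in red (filled where the adjusted p was under 0.05) and clone 4 in blue, and a bar at each median. In clone 8 the ribosomal protein genes centre on -0.78 and the translation factors on -0.45, while the assembly factors centre on 0.04 and the regulators on 0.33 with calls on both sides.

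Pseudogenes and mitochondrial ribosomes gave the nearest comparisons. Ribosomal protein pseudogenes, near copies that can take reads from their parents, held 0.112% to 0.223% of counts, or 1.91 to 2.18 per 100 counts of the ribosomal protein genes. Of 113 tested, 36 were called lower in clone 8 and 0 higher, against 8.6% and 8% of all tested genes. Their median was -0.78, and their proportion to their parents was about the same in every group. Of 77 tested genes for mitochondrial ribosomal proteins, 47 were called lower and 0 higher in clone 8, against the same shares, with a median of -0.48. In clone 4 the median was -0.08 and 0 were called, with 5 lower at an unadjusted p under 0.05 and 0 called by DESeq2. The medians of the cytosolic and mitochondrial sets in clone 4, -0.37 and -0.08, were not tested against each other. In the interaction both sets had a median of -0.41. In clone 8 transcripts from the mitochondrial genome moved the other way, with 0.470% and 0.619% of counts with vehicle and 1.35% and 1.19% with 4OHT. In clone 4 they held 0.248% and 0.417% with vehicle and 0.205% and 0.408% with 4OHT, with overlapping groups. With those transcripts left out of the total, the ribosomal protein share in the 4OHT libraries of clone 8 was 6.36% and 6.5%.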

How the data were processed

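The table that the authors deposited gives raw, unscaled counts of reads for each Ensembl gene in the 8 libraries, as its whole numbers and differing totals show. Reads were handled with bcl2fastq 2.19.1 and STAR 2.5.3a on mm10, per the submitters' processing notes; the counting program, annotation release and use of strand are not given in the sources used here. Symbols matched 52403 of 52636 gene identifiers, and those without a symbol held at most 0.0325% of counts.

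Genes kept by filterByExpr (minimum count 10) were fitted with edgeR 4.0.16 in R 4.3.3: TMM scaling, glmQLFit and glmQLFTest, with p-values adjusted by Benjamini-Hochberg over all 18321 genes. The responses within each clone, their difference and the clones in vehicle came from 1 fit of the 4 groups, and the response over both clones from an additive fit. Standard errors (SE) were taken from the fold change and its F statistic. Levels in CPM were scaled by TMM to 1 M counts a library (M, mega). Lengths, GC content and overlaps came from GENCODE vM21. The procedure was tested on simulated data.

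The members and lists were chosen with earlier results of these data known. Genes were named if called and among the 4 largest changes of a comparison, if among the 4 highest or lowest estimates within a clone, if a paralog pair, or for a fixed role; Rps2, Rpl29, Rpl4, Rpl13a and Rps3a1 were named after their values were seen. Listed pathway genes were named if called or at either end of their list, and 1 of them is not reported here. Samples were not treated as paired by replicate number in the reported fits. The correlations of same-numbered libraries' deviations were -0.03 to 0.09 over all tested genes and -0.27 to 0.29 over the members.

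The alternatives were RLE factors (as used by DESeq2), library totals, TMM without the members, DESeq2 1.42.0, no filter, stricter thresholds, a minimum of 10 counts in every library, the replicate block, offsets for length and GC content, thinning to the smallest library, fits of 1 clone alone, each library left out, and the legacy option of glmQLFit, whose default was kept after counts had been seen under both settings.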

Additional observations from a re-analysis of the deposited data

Results flagged for a closer look

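Among 82 sets of 4 libraries examined (the level of each named member over the vehicle and over the 4OHT libraries, and summary shares), 4 held a library far from the others by Dixon's criterion, where chance gives about 4.1. Rplp0 was at 5569 CPM in the vehicle clone 8 replicate 1 library, against 3811 to 3946 CPM in the other vehicle libraries. Rpl3, beside the peptidyl transferase centre, was at 1990 CPM in the same library, against 1487 to 1565 CPM in the others. In the 4OHT clone 8 replicate 1 library, Rpl12 was high at 330.1 CPM, against 274 to 283 CPM, and Rpl35a low at 351 CPM, against 410.2 to 422 CPM. The response of Rps27l differed between the clones by -0.67 on the log2 scale in the interaction test (adjusted p = 0.048, edgeR's quasi-likelihood test).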

How the results depend on the processing

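The members' median kept its sign in every comparison and setting. Of 200 estimates of named members over the 5 comparisons, 29 changed sign in at least 1 setting, none of them called in the reported fit, among them Rps2 (-0.25 to 0.28) and Rpl29 (-0.34 to 0.17) within clone 8 and Rpl24 within clone 4 (-0.95 to 0.88). The calls rest on few libraries, and 1 library decides those in clone 8. The 73 members called lower in clone 8 became 52 with length and GC offsets, 43 with these offsets and the replicate block, 19 at an adjusted p under 0.01, and 0 in a fit of clone 8 alone; leaving out 1 library at a time gave 0 (without vehicle clone 8 replicate 1) to 75 calls and medians of -0.97 to -0.62. Rpl24 was the 1 member called higher without a filter, with at least 10 counts in every library, in DESeq2 and without 4OHT clone 4 replicate 1 (0 to 1 over the libraries left out). The 0 calls in clone 4 became 32 without a filter, 1 with at least 10 counts in every library, 9 in DESeq2 and 4 in a fit of clone 4 alone, and 0 to 3 over the libraries left out, with 3 without either 4OHT library of clone 8. The 1 member called in the difference became 0 with library totals, 0 with the replicate block, 0 at an adjusted p under 0.01, 16 without a filter and 5 in DESeq2, and 0 to 4 over the libraries left out. The 0 calls over both clones became 74 without a filter, 71 in DESeq2 and 74 when the within-clone contrasts were averaged. The 25 members higher in clone 8 in vehicle became 60 without a filter, 53 in DESeq2, 3 with length and GC offsets (median 0.20), 2 with these offsets and the replicate block (median 0.20), 0 at an adjusted p under 0.01, and 0 to 56 over the libraries left out: 0 without vehicle clone 8 replicate 1 or either vehicle library of clone 4, 7 without either 4OHT library of clone 4, and 56 without vehicle clone 8 replicate 2. With the replicate block alone, 72 members were called lower in clone 8. The cause of these changes was not tested, apart from the number of genes tested and the number of libraries, which the settings themselves alter.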
